A study of Homo sapiens with 24 samples.

Results

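The effect of low oxygen was examined without estradiol in parental HCT116, a widely used line from a human colon carcinoma. This comparison uses 6 of the 24 Affymetrix arrays of the series: 3 of hypoxic and 3 of normoxic cells, chosen by their labels (oxygen status, genotype WT, no treatment). Hypoxic cells were kept in an incubator flushed with humidified gas of 5% CO2 and 94% N2; normoxic cells had the usual humidified chamber. Neither the oxygen level reached nor the length of the exposure is stated in the labels. The labels name McCoy's 5A or RPMI-1640 for routine culture and a phenol-red-free, stripped-serum DMEM for estradiol treatment, without saying which the groups without estradiol had. Total RNA was labelled from 100 ng per sample, with RNA integrity numbers between 8.5 and 10 per the labels' protocols. The rest of the series repeats both oxygen conditions with 10 nM 17β-estradiol, and in HCT116 cells transduced with a lentivirus for HaloTag-fused ESR2, the gene of estrogen receptor beta, and selected with puromycin, of which more than 80% expressed GFP. A transduced control with an empty vector is not among the samples used here. Parental cells had a signal for ESR2 itself of 3.43 ± 0.11 in hypoxia and 3.47 ± 0.11 in normoxia (RMA log2 signal, mean ± SD, n = 3 each), below the array medians of 4.07 to 4.13. Whether the 3 replicates are separate cultures is not stated. The p-values rest on scatter among arrays, possibly technical, that was pooled over all 24 arrays in 8 groups, not these 6 alone. Having 3 arrays a group limits the precision.

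Cells sense oxygen largely through hypoxia-inducible factor (HIF), a pair of an oxygen-regulated alpha subunit and a stable beta subunit. When oxygen is present, prolyl hydroxylases mark the alpha subunit for destruction through the VHL ubiquitin ligase; without oxygen it persists, enters the nucleus and binds the core sequence ACGTG or GCGTG near its target genes. Its best known targets encode glucose transporters, glycolytic enzymes, angiogenic factors and the hydroxylases themselves. Low oxygen is also known to slow energy-costly work such as ribosome production, translation and cell division.

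One normoxic array stood apart and was left out as a check throughout. Normoxia replicate 2 correlated with the other normoxic arrays at 0.988 and 0.989 over all probe sets, whereas hypoxic arrays correlated with each other at 0.998. Averaged over the control transcripts beta-actin, dap and thr, its 3′ signal exceeded the 5′ signal by 4.34 log2 units. This value was 2.28 to 2.41 on the hypoxic arrays and 2.60 and 2.65 on the other normoxic arrays. GAPDH, left out of this mean, was at 0.74 on replicate 2 and at -0.02 and -0.06 on the other normoxic arrays. The part of this in single results was not tested. Values without replicate 2 are given beside many, but not all, results that change with it. Colon epithelial markers had a mean signal of 6.53 to 6.56 on hypoxic and 6.14 to 6.24 on normoxic arrays over 12 genes, of which 5 were called higher and 1 lower. No marker of fibroblasts (9 genes), leukocytes (8) or endothelium (6) was called or reached a log2 signal of 8 in either group. In a bulk sample, fewer cells of a kind and less RNA per cell cannot be told apart.

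The promoters of DDIT4, ANKRD37, ADM, CXCR4, ANGPTL4 and COL13A1, which with NDRG1 (not shown) are the 7 genes that rose most, are shown because the HIF core motif can be read in them directly. Each line gives 280 bases of the sense strand, from 250 before to 30 after the annotated start (RefSeq, GRCh38.p14), with ACGTG or GCGTG in capitals where it is read on the given strand and CACGT or CACGC where it lies on the opposite strand.
DDIT4, chr10:72273674-72273953, plus strand: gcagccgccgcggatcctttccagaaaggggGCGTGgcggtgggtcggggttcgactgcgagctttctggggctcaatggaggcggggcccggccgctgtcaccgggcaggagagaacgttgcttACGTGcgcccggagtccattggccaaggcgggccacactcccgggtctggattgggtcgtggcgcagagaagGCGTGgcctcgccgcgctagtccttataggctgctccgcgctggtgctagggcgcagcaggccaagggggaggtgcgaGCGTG
ANKRD37, chr4:185396591-185396870, plus strand: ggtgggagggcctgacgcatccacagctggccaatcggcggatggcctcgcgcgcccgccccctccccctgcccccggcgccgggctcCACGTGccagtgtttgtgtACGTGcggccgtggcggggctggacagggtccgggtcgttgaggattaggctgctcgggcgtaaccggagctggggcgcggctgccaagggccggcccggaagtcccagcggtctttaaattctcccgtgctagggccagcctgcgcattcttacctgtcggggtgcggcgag
ADM, chr11:10304823-10305102, plus strand: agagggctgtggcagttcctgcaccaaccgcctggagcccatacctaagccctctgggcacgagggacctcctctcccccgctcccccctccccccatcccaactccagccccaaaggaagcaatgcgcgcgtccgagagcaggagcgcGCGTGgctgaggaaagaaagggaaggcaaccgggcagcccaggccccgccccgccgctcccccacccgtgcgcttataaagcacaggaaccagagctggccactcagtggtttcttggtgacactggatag
CXCR4, chr2:136118120-136118399, minus strand: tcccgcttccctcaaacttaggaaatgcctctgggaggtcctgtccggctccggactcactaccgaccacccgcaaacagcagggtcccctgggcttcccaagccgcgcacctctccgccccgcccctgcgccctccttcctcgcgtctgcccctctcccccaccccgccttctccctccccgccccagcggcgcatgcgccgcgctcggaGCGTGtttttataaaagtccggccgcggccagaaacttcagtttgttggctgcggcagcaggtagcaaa
ANGPTL4, chr19:8363905-8364184, plus strand: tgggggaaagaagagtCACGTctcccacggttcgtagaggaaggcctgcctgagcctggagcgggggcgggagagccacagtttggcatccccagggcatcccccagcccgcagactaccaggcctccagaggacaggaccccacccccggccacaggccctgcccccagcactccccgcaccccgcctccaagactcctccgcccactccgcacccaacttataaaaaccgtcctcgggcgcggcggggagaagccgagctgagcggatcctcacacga
COL13A1, chr10:69801656-69801935, plus strand: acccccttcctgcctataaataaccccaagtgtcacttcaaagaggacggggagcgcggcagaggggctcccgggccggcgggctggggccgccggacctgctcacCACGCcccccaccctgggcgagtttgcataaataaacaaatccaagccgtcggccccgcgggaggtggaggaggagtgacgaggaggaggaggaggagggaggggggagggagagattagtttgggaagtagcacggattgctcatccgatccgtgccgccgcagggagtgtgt
Of these, DDIT4 held 4 copies, ANKRD37 had 3 matches, of which 2 overlap in a palindromic CACGTG, and ADM, CXCR4, ANGPTL4 and COL13A1 had 1 each (CXCR4 has 3 windows in the table, and the most upstream one is shown). Windows of rises were shown only if they held the motif, and windows of falls whether or not they did. The windows shown are therefore no like-for-like contrast. The gene that fell most, MAT2A, had no match in its window, and NCOA5, the next one, had 2.
MAT2A, chr2:85538918-85539197, plus strand: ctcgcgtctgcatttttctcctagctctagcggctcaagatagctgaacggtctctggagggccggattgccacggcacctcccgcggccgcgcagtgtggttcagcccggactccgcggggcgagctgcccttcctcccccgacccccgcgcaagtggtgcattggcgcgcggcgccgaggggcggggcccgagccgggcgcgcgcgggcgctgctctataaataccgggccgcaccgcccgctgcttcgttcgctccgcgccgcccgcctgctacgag
NCOA5, chr20:46089933-46090212, minus strand: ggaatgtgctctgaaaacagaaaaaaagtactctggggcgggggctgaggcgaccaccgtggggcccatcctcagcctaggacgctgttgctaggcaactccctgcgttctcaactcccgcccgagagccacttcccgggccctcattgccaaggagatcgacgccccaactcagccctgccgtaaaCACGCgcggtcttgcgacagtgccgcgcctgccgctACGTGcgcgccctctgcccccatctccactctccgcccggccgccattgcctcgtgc
A match describes letters only. The motif, searched on both strands, was found in 73.5% of the 34 windows of the 30 largest rises (26 genes had a window), and in 56.0% of the 25 windows of the 30 largest falls (22 genes). Among all 20496 windows of the genes tested the share was 52.8%, and among the 35116 windows of all genes in RefSeq's list 46.3%. Over the wider set of genes called higher by more than 2-fold the motif was in 53.3% of 636 windows, close to the share over all genes tested, and in 62.9% of 692 windows of the genes called lower by more than 2-fold. The windows also differed in base composition, with a median GC content of 67.7% for the 30 largest rises, 66.8% for the 30 largest falls and 62.5% for all genes tested. The part of GC content in these shares was not tested.

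Of 18239 genes tested, each read from its brightest probe set, 2983 (16.4%) were called higher in hypoxia and 3861 (21.2%) lower at a limma adjusted p below 0.05. In all, 37.5% of genes were called, so a call alone says little about any single gene, and gene groups are read below against these shares and against the median log2 difference of all genes, 0.003. The shares depend on signal. In the brightest of 5 equal groups of genes 25.1% were higher and 39.9% lower, and in the dimmest 2.71% and 1.51%. Gene groups were not matched for signal, so the shares of all genes can be too low a reference for bright ones. Past 2-fold, 456 genes (2.5%) were higher and 608 (3.33%) lower. Past 4-fold the balance turned, with 55 genes higher and 34 lower. The 3 hypoxic values lay entirely above or below the 3 normoxic values in 43.8% of genes, above in 20.3% and below in 23.5%. Without normoxia replicate 2, 3112 genes were called higher and 3731 lower.

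DDIT4, which encodes an inhibitor of mTORC1 signalling (the growth-promoting kinase complex), stood at 12.03, 11.98 and 12.02 on the hypoxic arrays and 7.34, 6.72 and 7.46 on the normoxic arrays (RMA log2 signal, as for all values per array below). Its difference of 4.83 (SE 0.13) was the largest of all genes and corresponds to 28.5-fold (limma, adjusted p = 7.91e-18). The lowest normoxic array was replicate 2, and without it the difference was 4.61. ANKRD37, an ankyrin-repeat gene known as a HIF target, read 11.37, 11.33 and 11.45 in hypoxia and 6.53, 6.77 and 6.68 in normoxia, with arrays close together in both groups. ADM, the gene of the vasodilator peptide adrenomedullin, read 11.63, 11.65 and 11.58 in hypoxia and 6.80, 7.15 and 6.92 in normoxia. NDRG1, a stress-responsive gene linked to differentiation, read 11.88, 11.94 and 11.86 in hypoxia and 7.37, 7.56 and 7.46 in normoxia, and all 6 of its probe sets were higher. In all of these genes the hypoxic arrays lay close together and more than 4 log2 units above every normoxic array.

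Other genes had a low normoxic signal. CXCR4, the receptor of the chemokine CXCL12, read 8.60, 8.49 and 8.41 in hypoxia and 4.63, 4.69 and 4.53 in normoxia (14.8-fold; adjusted p = 7.91e-18). ANGPTL4, a secreted inhibitor of lipoprotein lipase, read 7.42, 7.31 and 7.36 in hypoxia and 3.77, 3.92 and 3.82 in normoxia. COL13A1, a transmembrane collagen, read 7.04, 7.32 and 7.22 in hypoxia and 3.79, 3.69 and 3.68 in normoxia. The groups did not overlap in any of these genes. SLCO1B3, an organic anion transporter best known from liver, read 7.38, 7.52 and 7.52 in hypoxia against a scattered 4.88, 3.76 and 4.45 in normoxia.

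**Figure D1:**
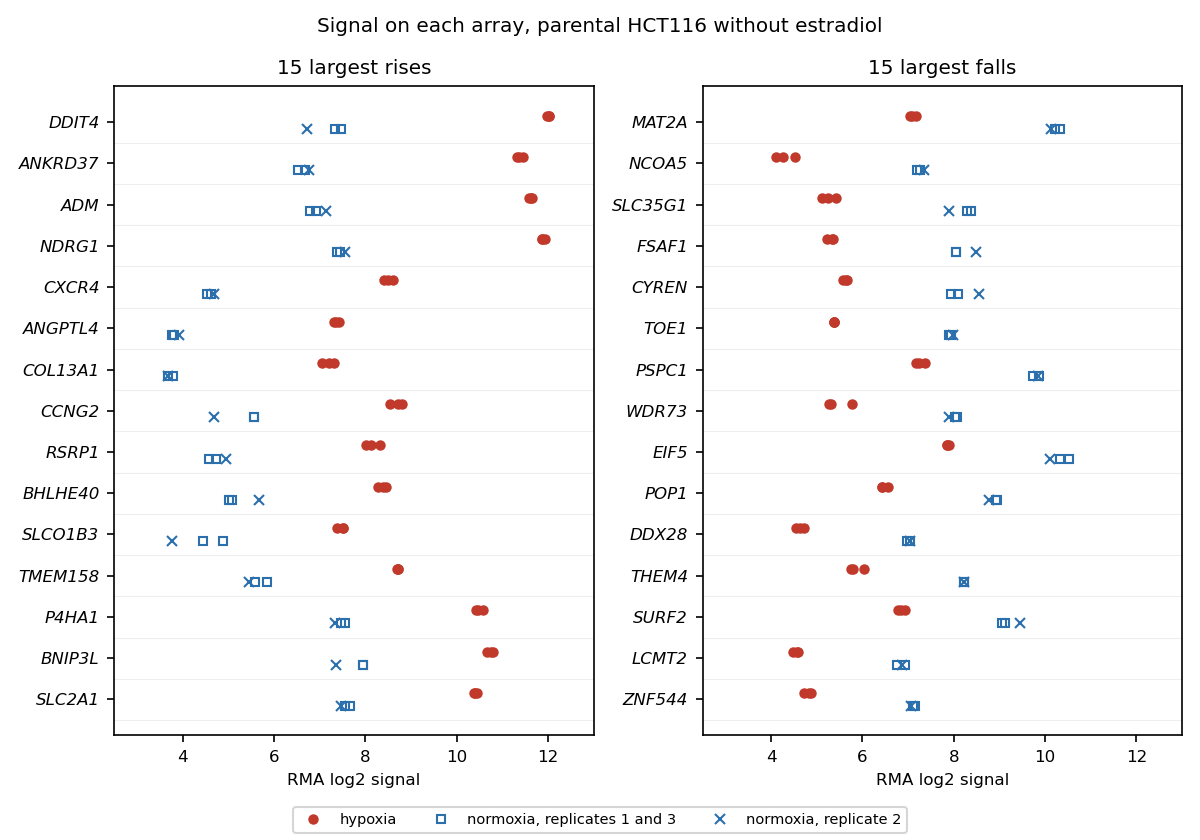
RMA log2 signal (x axis) on each of the 6 arrays for the 15 genes with the largest rise (left) and the 15 with the largest fall (right); red points are the 3 hypoxic arrays, drawn above the normoxic arrays in blue (squares, replicates 1 and 3; cross, replicate 2). The groups do not overlap in any of the 30 genes, and for CCNG2, SLCO1B3 and BNIP3L the cross lies below both squares.

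Regulators of transcription and the cell cycle were among the other large rises. BHLHE40, a basic helix-loop-helix repressor, read 8.40, 8.45 and 8.28 in hypoxia and 5.08, 5.68 and 5.01 in normoxia. CCNG2, an atypical cyclin associated with cell cycle arrest, read 8.55, 8.72 and 8.81 in hypoxia and 5.56, 4.70 and 5.56 in normoxia. KLF9, a Krüppel-like factor, rose by 2.79, but its 4 probe sets ranged from -0.14 to 2.79. RSRP1, an arginine- and serine-rich protein gene, rose by 3.40 by the brightest of 5 probe sets, which ranged from 0.08 to 3.40. SNAPC3, a subunit of the complex that starts small nuclear RNA transcription, rose by 2.62, and PNRC1, a nuclear receptor coactivator, by 2.41. The 30 largest rises spanned 5.21-fold to 28.5-fold, and all 30 stayed called without normoxia replicate 2, with log2 differences between 2.25 and 4.78. In 3 of the 30 (OSMR, KLF9 and PLEKHA2) at least 1 probe set did not move the same way. In others the size depended on the probe set, and the weakest ones of CCNG2 and SLCO1B3, for example, rose by only 0.08 and 0.05.

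MAT2A, the enzyme that makes S-adenosylmethionine, the methyl donor of most methylation reactions, fell most. It read 7.04, 7.18 and 7.08 in hypoxia and 10.33, 10.14 and 10.23 in normoxia, a difference of -3.13 (SE 0.09; 8.77-fold lower; limma, adjusted p = 9.56e-18). Of its 6 probe sets 5 were lower and 1 was near 0, with differences from -3.13 to 0.02, so that the size depends on which probe set is read. NCOA5, a nuclear receptor coactivator that also acts as a corepressor, read 4.51, 4.26 and 4.11 in hypoxia and 7.25, 7.34 and 7.20 in normoxia. SLC35G1, a membrane protein of the solute carrier family, read 5.43, 5.12 and 5.24 in hypoxia and 8.39, 7.90 and 8.28 in normoxia. The groups lay more than 2 log2 units apart in each of these genes.

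Of the other large falls, FSAF1, a nucleolar factor for the small ribosomal subunit, read 5.34, 5.35 and 5.21 in hypoxia and 8.06, 8.50 and 8.05 in normoxia. POP1, the largest protein of RNase P and RNase MRP, read 6.43, 6.42 and 6.56 in hypoxia and 8.96, 8.77 and 8.92 in normoxia. RRS1, a factor for the large subunit, read 6.72, 6.70 and 6.55 in hypoxia and 8.77, 8.50 and 8.86 in normoxia. DDX28, a helicase of mitochondrial ribosome assembly, was at -2.38, TOE1, which trims the ends of small nuclear RNAs, at -2.56, and LCMT2, an enzyme of tRNA modification, at -2.31. PCF11, needed for transcript cleavage and termination, fell by 2.06. Among translation factors EIF5, the activator of start-codon recognition, read 7.85, 7.90 and 7.86 in hypoxia and 10.53, 10.11 and 10.33 in normoxia, and all 7 of its probe sets were lower. CEBPA, a differentiation factor, read 4.27, 4.17 and 4.40 in hypoxia and 5.95, 7.08 and 6.07 in normoxia. Its normoxic replicate 2 is the highest, and without that array the difference was -1.73 in place of -2.09. The 30 largest falls spanned 4.15-fold to 8.77-fold. In 5 of them (MAT2A, PSPC1, ZNF544, DIDO1 and ABCA10) probe sets disagreed in direction. Probe sets of others agreed in direction but not in size. The weakest ones of NCOA5, SLC35G1, DDX28, LCMT2 and PCF11, for example, were at -0.46, -0.62, -0.0015, -0.41 and -0.31.

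The oxygen-sensing machinery itself changed in both directions. EGLN1, the main HIF prolyl hydroxylase, read 10.14, 10.16 and 10.17 in hypoxia and 8.93, 8.48 and 8.83 in normoxia and rose 2.66-fold (adjusted p = 6.38e-11). EGLN3, a second prolyl hydroxylase, rose 2.04-fold at a low signal (4.80, 4.87 and 5.07 in hypoxia, 3.78, 3.90 and 3.97 in normoxia), in 2 of its 3 probe sets. The third hydroxylase, EGLN2, fell 2.25-fold, with 6.44, 6.26 and 6.38 in hypoxia and 7.20, 8.05 and 7.35 in normoxia. The highest of these EGLN2 values was that of normoxia replicate 2. HIF1AN, the asparaginyl hydroxylase that blocks the transactivation domain, fell by 0.60, and VHL by 0.41 (-0.70 without normoxia replicate 2). The VHL call was near the threshold (limma, adjusted p = 0.049). It was lost when any other of the 6 arrays was left out (-0.22 without normoxia replicate 1). Using only the groups compared or a further quantile normalization also lost it. P4HTM, a transmembrane prolyl hydroxylase, differed by 0.17 (SE 0.10; limma, adjusted p = 0.212) and was called higher without normoxia replicate 2 (0.29).

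Of the HIF subunits, the 2 main alpha genes went opposite ways. EPAS1, encoding HIF-2 alpha, read 7.34, 7.41 and 7.29 in hypoxia and 6.46, 6.40 and 6.48 in normoxia and rose 1.87-fold (adjusted p = 1.73e-08). HIF1A, encoding HIF-1 alpha, read 9.36, 9.45 and 9.47 in hypoxia and 10.11, 9.65 and 10.03 in normoxia and fell 1.41-fold (adjusted p = 7.41e-05). With its probe sets averaged HIF1A differed by -0.40 and was not called. Beta subunit gene ARNT differed by 0.04, ARNT2 by -0.19, and HIF3A, a further alpha gene, by -0.06, none of them called. The acetyltransferase coactivators fell, EP300 by 0.87 and CREBBP by 0.44. CITED2 and CITED4, which compete with HIF for these coactivators, differed by 0.25 and 0.09 and were not called, but CITED2 was called higher without normoxia replicate 2 (0.59). HIF alpha is controlled mainly as a protein, which arrays do not measure.

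Genes of glucose use rose together. SLC2A1, the glucose transporter GLUT1, read 10.40, 10.39 and 10.44 in hypoxia and 7.67, 7.46 and 7.56 in normoxia (7.21-fold). For the steps from hexokinase to aldolase all 8 measured members were called higher (16.4% of all genes were), with a median log2 difference of 0.95. ALDOC, an aldolase, rose 5.68-fold, HK2, a hexokinase, 3.81-fold, GPI, the isomerase that follows it, 2.83-fold and HK1 2.19-fold. PFKP, PFKL and PFKM, the phosphofructokinases, rose by 0.62, 0.63 and 0.18 on the log2 scale. Of the later steps from triose phosphates to lactate 7 of 9 were called higher and none lower, with a median of 0.25. ENO2, an enolase, read 8.35, 8.09 and 8.14 in hypoxia and 5.86, 6.17 and 5.86 in normoxia (4.68-fold), against 1.48-fold for its relative ENO1. PGK1 rose by 0.85, while LDHA, GAPDH and PGAM1 rose by only 0.24, 0.21 and 0.25. TPI1 and LDHB differed by 0.09 and 0.03, not called, and without normoxia replicate 2 TPI1 was called higher (0.18).

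Enzymes that steer glucose carbon also moved. PFKFB4, which makes the phosphofructokinase activator fructose 2,6-bisphosphate, read 8.12, 7.99 and 7.97 in hypoxia and 5.72, 6.14 and 5.74 in normoxia (4.47-fold), and PFKFB3 rose by 0.30, a call lost without normoxia replicate 2. TIGAR, which breaks the same activator down, fell 2.39-fold. Kinases that shut pyruvate dehydrogenase rose: PDK1 6.10-fold, with 9.19, 9.34 and 9.28 in hypoxia and 6.78, 6.51 and 6.70 in normoxia, PDK3 2.29-fold and PDK4 1.84-fold at a low signal. The mitochondrial pyruvate carrier subunit MPC1 fell by 0.90 and the dehydrogenase subunit DLAT by 0.41. PDHA1, its catalytic subunit, differed by -0.06 and was not called. Over this group of 10 genes 4 were higher and 4 lower.

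Glycogen synthesis had 4 of 9 members called higher, among them the branching enzyme GBE1 (9.39, 9.53 and 9.59 in hypoxia, 7.54, 7.35 and 7.48 in normoxia), the regulatory phosphatase subunit PPP1R3B (3.21-fold) and PGM1 (2.22-fold). Glycogenin gene GYG1 fell by 0.77, and glycogen synthase GYS1 differed by 0.33, not called, but was called higher without normoxia replicate 2 (0.77). PYGL, a phosphorylase that breaks glycogen down, rose by 0.90. In pH control CA12, a membrane carbonic anhydrase, rose 3.29-fold, with 6.12, 6.35 and 6.11 in hypoxia and 4.48, 4.47 and 4.48 in normoxia, whereas CA2 fell by 0.50. The bicarbonate transporter SLC4A7 rose by 1.24 and the anion exchanger SLC4A2 fell by 1.21.

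Other oxygen-using enzymes moved as well. Among collagen prolyl and lysyl hydroxylases 6 of 7 were called higher and none lower, with a median of 1.30. P4HA1, a catalytic subunit of collagen prolyl hydroxylase, read 10.42, 10.48 and 10.58 in hypoxia and 7.55, 7.34 and 7.47 in normoxia (8.21-fold). PLOD2, a lysyl hydroxylase that sets collagen crosslinks, rose 5.21-fold, PLOD1 2.90-fold and P4HA2 2.47-fold. The lysyl oxidase family split, with LOXL2 3.37-fold higher, LOXL1 2.10-fold lower and LOX itself at -0.09, not called.

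Of 17 JmjC histone demethylases, which need oxygen to remove methyl groups, 11 were called higher and 2 lower (median 0.38). KDM3A read 9.84, 9.92 and 9.85 in hypoxia and 7.90, 7.62 and 7.83 in normoxia (4.26-fold). KDM4B rose 2.81-fold (its 4 probe sets ranged from -0.09 to 1.49), KDM4C 2.31-fold and KDM7A 2.30-fold. PHF8 fell by 0.75 (its second probe set was 0.28) and KDM2B by 0.44, against the rest. Among related dioxygenases with other substrates, TET1, which oxidises methylcytosine, rose by 1.06, while TET3 fell by 0.85. RIOX1 and RIOX2, ribosomal oxygenases of the nucleolus, fell, at -1.69 and -1.19.

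Secreted factors for vessels and growth rose in part. VEGFA, the main angiogenic growth factor, read 10.61, 10.50 and 10.53 in hypoxia and 8.56, 8.85 and 8.69 in normoxia (3.59-fold). PDGFA, a platelet-derived growth factor, read 9.46, 9.37 and 9.48 in hypoxia and 6.88, 7.32 and 6.85 in normoxia (5.33-fold), and STC2, the hormone stanniocalcin 2, rose 5.48-fold. GDF15, a stress cytokine, rose 3.51-fold and TGFA, an EGF receptor ligand, 2.67-fold. VEGFB and VEGFC differed by 0.05 and 0.06, not called (VEGFB was 0.25 and called without normoxia replicate 2), and PGF, placental growth factor, fell by 0.47. In all, 5 of 13 angiogenic genes and 7 of 13 other growth factors and binding proteins were called higher, with 2 and 0 lower. Without normoxia replicate 2, 6 angiogenic genes were higher and 1 lower.

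Of 13 mTORC1 inhibitors and sensors 3 (23.1%) were higher and 2 (15.4%) lower, or 2 and 2 without normoxia replicate 2. DEPTOR, a second inhibitor besides DDIT4, rose 3.54-fold. Of 10 genes of the mTOR complex and its activators 2 were higher and 5 lower. The complex members RPTOR and MLST8 fell, at -0.81 and -0.74. The 6 probe sets of RPTOR ranged from -0.81 to 0.39, and with them averaged RPTOR differed by -0.11 and was not called. MLST8 was at -0.46 without normoxia replicate 2. RRAGD, a GTPase that brings the complex to the lysosome, rose by 1.28. Of the mitophagy receptors, which mark mitochondria for removal, 5 of 8 were called higher and 2 lower. BNIP3L read 10.67, 10.80 and 10.75 in hypoxia and 7.95, 7.37 and 7.95 in normoxia (7.92-fold), BNIP3 rose 4.13-fold, and PINK1, the kinase that triggers mitophagy, 2.18-fold. Receptors PHB2 and FUNDC1 fell, at -0.43 and -0.15; neither was called without normoxia replicate 2. Of 20 general autophagosome genes 4 (20%) were higher and 5 (25%) lower, near the shares of all genes (16.4% and 21.2%). HILPDA, which protects lipid droplets from lipolysis, read 10.12, 10.10 and 10.13 in hypoxia and 7.22, 7.55 and 7.35 in normoxia (6.69-fold), whereas the droplet coat PLIN2 differed by -0.05, not called.

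Mitochondrial genes divided by function. For complex I 5 of 35 were called higher and 8 lower (median -0.08), and for complexes III to V 2 of 32 higher and 8 lower (median -0.04). These shares are at, near or below the background of 16.4% and 21.2%. Without normoxia replicate 2, they were 3 and 7 for complex I, and 4 and 5 for complexes III to V. Complex I assembly factors had 7 of 12 lower (5 without normoxia replicate 2), among them NDUFAF4 (-1.22) and NDUFAF5 (-1.03). TCA cycle enzymes had 5 higher (27.8%) and 3 lower (16.7%) of 18, with IDH2 at 0.92 and citrate synthase (CS) at -0.48, or -0.24 without that array.

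By contrast, most genes that express the mitochondrial genome or import proteins into mitochondria were lower. Of 76 mitochondrial ribosomal proteins 57 (75%) were called lower and 3 higher, with a median of -0.41. MRPL46 read 7.76, 7.64 and 7.65 in hypoxia and 9.03, 9.32 and 9.13 in normoxia, and MRPS31 6.93, 6.95 and 6.85 in hypoxia and 8.20, 8.38 and 8.22 in normoxia. Exceptions were MRPS14, MRPL42 and MRPL33, which rose by 0.45, 0.32 and 0.16. Of 18 genes of mitochondrial transcription and protein import 13 were lower, among them the import proteins TIMM10 (-1.56), TIMM44 (-1.37) and TOMM40 (-1.34) and the helicase TWNK (-1.01). TFAM, which packages mitochondrial DNA, fell by 0.43.

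Genes of ribosome production were mostly lower. In transcription of ribosomal RNA, 12 of 15 RNA polymerase I genes were called lower, including the activator UBTF (-1.34) and the core subunit POLR1B (-0.98), while TAF1A and TAF1D rose by 0.95 and 0.60. For RNA polymerase III, 10 of 19 were lower and 2 higher (11 and 4 without normoxia replicate 2), led by POLR3C and POLR3B (-1.47 and -1.41). In the particles that guide ribosomal RNA modification 9 of 10 were lower, with GAR1 (9.04, 9.01 and 9.13 in hypoxia, 10.36, 10.50 and 10.26 in normoxia) and NOP56 at -1.31 and -1.03.

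The small subunit processome had 35 of 39 members lower (89.7%, against 21.2% of all genes) and 1 higher, with a median of -0.72. PNO1 read 7.80, 7.82 and 7.80 in hypoxia and 9.51, 9.44 and 9.56 in normoxia, and UTP15, NOL10 and LTV1 fell, at -1.62, -1.43 and -1.48. In large subunit assembly 34 of 39 were lower (87.2%; median -0.65) and none higher. NOP2, a ribosomal RNA methyltransferase, fell 3.90-fold, and FTSJ3 and RRP1 fell, at -1.95 and -1.99. RNase P, RNase MRP and the exosome, which trim ribosomal and transfer RNA, had 16 of 19 lower (median -0.74), with EXOSC4 and EXOSC10 at -1.42 and -1.32 after POP1. With replicate 2 of normoxia left out, the counts of lower members were 36, 35 and 16.

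The proteins of the cytosolic ribosome itself did not share this. Of 70 measured, 2 were called higher and 4 lower, with a median near 0. RPL3 and RPS9 rose by 0.30 and 0.25, and RPL27A, read by a dim probe set (4.86, 4.96 and 4.75 in hypoxia, 6.58, 6.11 and 6.17 in normoxia), fell by 1.43.

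**Figure D2:**
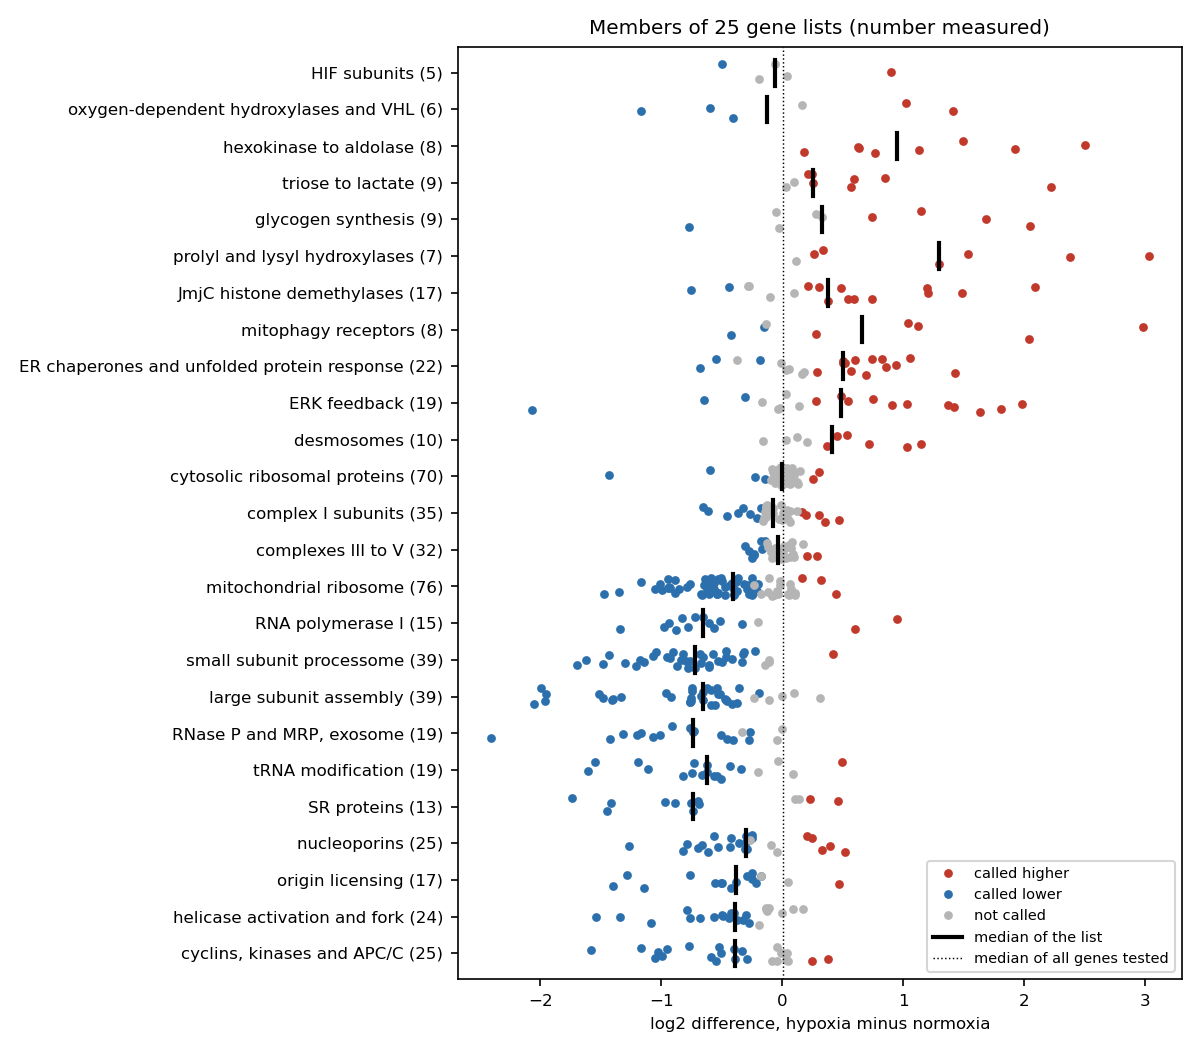
Log2 difference, hypoxia minus normoxia (x axis), of the measured members of 25 gene lists (rows, number of members in brackets); each point is a gene, red where called higher, blue where called lower and grey where not called, black bars are list medians and the dotted line is the median of all genes. Hexokinase to aldolase lies wholly above 0, most members of the ribosome assembly lists lie below 0, and cytosolic ribosomal proteins cluster at 0.

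Translation factors showed smaller and mixed changes. Of 51 initiation factor genes 8 were higher and 20 lower. Besides EIF5, EIF4ENIF1, the transporter of the cap-binding protein, fell by 1.45, and 4 subunits of the exchange factor eIF2B fell: EIF2B1, EIF2B2, EIF2B4 and EIF2B5 by 0.86, 0.46, 0.89 and 0.77. EIF4A2, a helicase of the cap-binding complex, read 11.43, 11.46 and 11.51 in hypoxia and 9.80, 9.47 and 9.86 in normoxia (3.38-fold higher), but its 4 probe sets ran from -1.06 to 1.76. ETF1, the release factor, fell by 1.09. Of 19 cytosolic tRNA synthetases 14 were lower, by less than 2-fold each, and 3 higher, including EPRS1 at 0.58. Without normoxia replicate 2, 13 were lower and 1 higher, and EPRS1 (0.19) was not called. Of 19 tRNA modification enzymes 15 were lower (13 without normoxia replicate 2), with a median of -0.62.

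Among splicing regulators, the SR proteins were lower. Of 13 SR proteins, which choose splice sites, 9 were lower and 2 higher (median -0.74). SRSF2 read 9.05, 9.11 and 9.08 in hypoxia and 10.52, 10.60 and 10.45 in normoxia, and SRSF8, SRSF5 and SRSF3 fell, at -1.74, -1.42 and -0.97, although the probe sets of SRSF3 ranged from -2.01 to 0.40. SRSF4 and SRSF9 rose by 0.46 and 0.23. Of 7 kinases of the CLK and SRPK families, which phosphorylate SR proteins, 4 were higher and 1 lower, or 3 and 2 without normoxia replicate 2. CLK1, CLK3 and CLK2 rose by 1.30, 1.08 and 0.88, whereas CLK4 fell by 0.35, though the 9 probe sets of CLK4 ran from -0.35 to 1.99 and its call was lost without normoxia replicate 2. In snRNP assembly 17 of 31 were lower (15 without normoxia replicate 2), led by GEMIN4 and GEMIN6 (-1.41 and -1.08).

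Paraspeckles are nuclear bodies built on a long noncoding RNA by a small set of proteins. No value for that RNA is given here. Of 9 genes listed for paraspeckles 6 were lower and 1 higher, or 5 and 1 without normoxia replicate 2. SFPQ, one of their core proteins, read 8.88, 8.78 and 8.77 in hypoxia and 11.02, 11.01 and 10.91 in normoxia and fell 4.50-fold (SE of the log2 difference 0.05; adjusted p = 1.12e-18), in both its probe sets. PSPC1, another core protein, fell 5.88-fold by its brightest probe set, with its 5 probe sets from -2.55 to 0.10. NONO, the third protein of this family, differed by -0.04, not called. MALAT1, a noncoding RNA of the neighbouring nuclear speckles, rose by 1.44. Of 25 nucleoporins 17 were lower and 5 higher (median -0.30), or 15 and 3 without normoxia replicate 2. Of 25 transport receptors and their regulators 13 were lower, led by RCC1, the exchange factor of Ran (-1.40).

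Genes of nucleotide synthesis were lower at several points. CTPS1, CTP synthase, read 7.54, 7.48 and 7.40 in hypoxia and 9.13, 9.20 and 9.16 in normoxia (3.22-fold lower), whereas its paralog CTPS2 rose by 0.69. UMPS, the last enzyme of UMP synthesis, fell by 1.21, and GART, of purine synthesis, was at -1.16. TYMS and TK1 were nearly level, at -0.14 and -0.02, and TK1 was not called. Of 9 methionine cycle genes 4 were called higher, by at most 0.51, and 3 lower, with a median of -0.01. Without normoxia replicate 2, 3 were higher and 3 lower. Besides MAT2A, MTRR fell by 1.28, and METTL16, the RNA methyltransferase known to control MAT2A splicing, by 0.57. In polyamine metabolism the synthetic enzymes ODC1, SRM and AMD1 fell, at -0.92, -0.97 and -0.52, and SAT1, which acetylates polyamines for export or breakdown, rose 3.82-fold (11.45, 11.66 and 11.62 in hypoxia, 9.70, 9.58 and 9.66 in normoxia).

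DNA replication genes were mostly lower. Of 17 origin licensing genes 14 were lower (median -0.38), and of 24 helicase and fork genes 16 were lower and none higher (median -0.39). ORC5, ORC6 and ORC2, subunits of the origin recognition complex, fell, at -1.40, -1.28 and -1.14. GINS3 read 6.79, 6.67 and 6.67 in hypoxia and 8.27, 8.26 and 8.23 in normoxia, and GINS4 fell by 1.35. Of the MCM helicase subunits, MCM6 fell by 0.38 by its brightest of 3 probe sets (-0.56 to 0.23), and MCM4 and MCM5 were not called (0.04 and -0.17), although MCM4 was called lower without normoxia replicate 2 (-0.27). For repair by homologous recombination 9 of 16 were lower, such as RAD51C (-0.88) and PALB2 (-0.83), and 4 higher, such as MRE11 (1.10) and RAD50 (0.73).

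Mitotic genes fell in part. Of 25 mitotic cyclins, kinases and regulators 15 were lower and 2 higher (15 and 0 without normoxia replicate 2). CDC25A, the phosphatase that activates cyclin-dependent kinases, read 6.69, 6.83 and 6.79 in hypoxia and 8.32, 8.52 and 8.21 in normoxia (2.99-fold lower), and CDC20 and CCNB1 fell, at -1.02 and -0.95. CCNA2, CCNB2, MAD2L1 and UBE2C were not called, with differences between -0.04 and 0.05, and CDK1 and TTK rose by 0.38 and 0.25. Among 32 kinetochore, condensin and spindle genes 14 were lower and 6 higher, and TOP2A and SMC2 rose by 0.59 and 0.77. Without normoxia replicate 2 the calls of CDK1 and TTK were lost (0.14 and 0.12), TOP2A was 0.32, and CCNA2 was called lower (-0.18).

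In G1 control, cyclin genes CCNE2, CCNE1 and CCND3 fell, at -1.62, -1.23 and -1.19, and CCND1 differed by -0.26, not called, but was called lower without normoxia replicate 2 (-0.53). Of 20 cell cycle inhibitors, RB and E2F family genes 9 were higher and 8 lower (median -0.14). Among the inhibitors CDKN1C, the p57 protein, rose 3.50-fold (9.10, 9.03 and 9.04 in hypoxia, 6.97, 7.41 and 7.37 in normoxia), RBL2, the p130 pocket protein, 3.39-fold, CDKN1B by 0.77 and CDKN1A by 0.60. E2F2 and E2F3, activators of S phase genes, fell, at -0.99 and -0.92. In the MYC network, MYC itself rose by 0.32, its partner MAX fell by 1.28, and the competitors MXI1 and MXD1 rose 4.51-fold and 2.33-fold. MXI1 read 10.66, 10.77 and 10.77 in hypoxia and 8.62, 8.45 and 8.61 in normoxia. The 12 probe sets of MAX ranged from -2.15 to 0.09.

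HCT116 cells carry wild-type p53, and its target genes went both ways, with 8 of 20 cell cycle targets higher and 3 lower. BTG1, an antiproliferative gene, rose 3.46-fold and GADD45B 2.18-fold, whereas AEN, an apoptosis-enhancing nuclease, fell 3.74-fold (6.21, 6.12 and 6.05 in hypoxia, 8.12, 7.98 and 7.99 in normoxia). MDM2 differed by 0.69 with an SE of 0.40 and was not called, and its sign turned without normoxia replicate 2 (-0.21). Of 5 anti-apoptotic genes of the BCL2 family 1 was higher and 1 lower, and of 11 pro-apoptotic ones 3 were higher and 2 lower. The highest of each were MCL1, which blocks apoptosis, at 1.10, and the pro-apoptotic BBC3, at 0.95.

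Stress programmes did not move as one. Of 22 endoplasmic reticulum chaperones and unfolded protein response genes 13 were higher and 3 lower (median 0.51). DNAJB9, a co-chaperone, rose by 1.43, ERO1A, the oxidase that forms disulfide bonds, read 9.93, 10.00 and 10.09 in hypoxia and 9.12, 8.73 and 9.01 in normoxia, and HSPA5, the main chaperone, rose by 0.51. ATF4 targets and other amino acid stress genes were lower in 11 of 20 cases. ATF5, SLC7A5, an amino acid transporter, and TRIB3 fell, at -1.32, -1.23 and -0.93, while DDIT3, ATF3 and CTH rose by 0.89, 0.83 and 0.81. AKR1B10, an aldo-keto reductase induced by NRF2, fell 4.19-fold, and SRXN1 fell by 1.18, but NQO1 and TXNRD1 rose by 0.53 and 0.59. Among heat shock genes, DNAJA1 fell by 1.38 and DNAJB4 rose by 1.20.

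Of 18 genes of E-cadherin, catenins and tight junctions 9 were higher and 3 lower. CDH1, encoding E-cadherin, read 8.12, 8.25 and 8.11 in hypoxia and 6.16, 6.23 and 5.95 in normoxia (4.11-fold; adjusted p = 4.2e-12), and CLDN4, a tight junction claudin, rose 2.34-fold. Of 10 desmosomal genes 6 were higher and none lower, with DSC2 and PPL up by 1.15 and 1.04. Keratin genes KRT8, KRT19 and KRT18 rose by 1.05, 0.69 and 0.33. In the opposite direction, MARVELD2, MARVELD3 and TJP1, also of tight junctions, fell, at -0.83, -0.65 and -0.41. Of 18 transcription factors and genes linked to a mesenchymal state 7 were higher and 3 lower, with a median of 0.14. FN1, fibronectin, read 5.65, 5.97 and 5.75 in hypoxia and 3.99, 3.72 and 3.58 in normoxia (a difference of 2.03); its normoxic signal lies below the array medians. S100A4 rose 2.46-fold and VIM by 0.99. The transcription factors ZEB1, ZEB2 and TWIST1 were not called, and SNAI1 fell by 0.57 while SNAI2 rose by 0.46. CDH1, KRT8, KRT18 and KRT19 are also 4 of the 5 colon epithelial markers called higher; the other is EPCAM (0.18, or 0.15 and not called without normoxia replicate 2), and CDX2 fell by 0.37.

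The urokinase system of pericellular proteolysis rose on both sides. PLAUR, its receptor, read 8.76, 8.86 and 8.88 in hypoxia and 6.31, 6.28 and 6.42 in normoxia (5.64-fold), and PLAU, the protease, read 10.29, 10.41 and 10.27 in hypoxia and 8.49, 8.39 and 8.48 in normoxia (3.65-fold). Of 19 genes of this system and its inhibitors 10 were higher and 2 lower. Tissue factor gene F3 and protease nexin SERPINE2 rose by 0.55 and 0.57.

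Signalling genes that respond to ERK were mostly higher, with 11 of 19 feedback genes up and 3 down (median 0.49). ERRFI1, an inhibitor of the EGF receptor, read 12.03, 12.12 and 12.06 in hypoxia and 10.30, 10.16 and 10.31 in normoxia (3.52-fold). The phosphatases DUSP5, DUSP6 and DUSP4 rose by 1.64, 1.42 and 1.37, and SPRY1, a Sprouty inhibitor, by 1.99. DUSP2, another ERK phosphatase, went against them with 5.25, 4.66 and 4.98 in hypoxia and 6.89, 7.24 and 6.97 in normoxia. EGFR, the EGF receptor, and NRG1, a ligand of its relatives, rose by 1.36 and 1.26, and HBEGF fell by 0.79. Of the AP-1 and immediate early genes 6 of 14 were higher (8 without normoxia replicate 2), including MAFF, FOSL2, JUN and EGR1 by 1.60, 1.36, 1.31 and 1.10.

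Of 13 Krüppel-like factors 7 were higher and 2 lower, with KLF4 and KLF6 up by 1.46 and 1.06. In the circadian group, the repressors BHLHE40, BHLHE41 and NFIL3 rose (2.03 for NFIL3), while the clock genes PER2 and CRY1 fell, at -1.70 and -1.11. Among Wnt-related genes SOX9, SOX4 and CD44 rose by 1.71, 1.06 and 1.06, but AXIN2 and ZNRF3, feedback inhibitors of the pathway, fell, at -0.50 and -0.53, with the call of ZNRF3 lost without normoxia replicate 2. ID3 and ID2, inhibitors of differentiation factors, fell, at -1.25 and -0.98, and ID1 rose by 0.48. OSMR, the oncostatin M receptor, read 8.06, 8.34 and 8.24 in hypoxia and 5.31, 5.48 and 5.44 in normoxia, whereas SOCS2, a feedback inhibitor of cytokine signals, fell by 1.25. Of 26 chemokines and their receptors 5 (19.2%) were higher and 2 (7.69%) lower, against 16.4% and 21.2% of all genes, and CXCL8 rose by 1.00. Of 25 interferon response genes 7 (28%) were higher and 6 (24%) lower, and the regulator IRF1 fell by 1.27.

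Of 13 Polycomb and DNA methylation genes 7 were lower and 1 higher. CBX2, a Polycomb protein, read 6.23, 5.94 and 5.98 in hypoxia and 7.90, 8.26 and 7.91 in normoxia (3.93-fold lower). EZH2, the Polycomb methyltransferase, fell by 1.28 by its brightest of 3 probe sets (-1.28 to 0.07), and DNMT3B, a DNA methyltransferase, was at -1.22. DNMT1 and DNMT3A differed by -0.03 and 0.09, not called. Of 20 SWI/SNF genes 2 were higher and 4 lower, near or below the background. H2BC5, a polyadenylated histone gene, read 7.23, 7.20 and 7.25 in hypoxia and 4.85, 4.95 and 5.19 in normoxia (4.69-fold higher). Among 455 measured genes named ZNF, 48 (10.5%) were higher and 104 (22.9%) lower, close to or below the shares of all genes.

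The response with estradiol was close to that without. The same comparison in parental cells with 10 nM estradiol shares no arrays with it and called 6345 genes (34.8%). All 1064 genes called past 2-fold without estradiol had the same sign with it, and 1055 of them (99.2%) were called in the same direction, with none called in the other. Across all 18239 genes the 2 sets of differences had a Pearson correlation of 0.949 and a Spearman correlation of 0.827, a description only, since genes are not independent and all arrays were normalized together. The 30 largest rises had a median log2 difference of 2.67 with estradiol and 2.82 without, and the 30 largest falls -2.13 and -2.29; these genes were chosen for large values without estradiol, so slightly smaller values elsewhere can follow from the choice. DDIT4 differed by 4.75 with estradiol, MAT2A by -3.03 and SLC2A1 by 2.69.

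A test of the difference between both responses called 1 gene of 18239 (0.00548%), with 921 at an unadjusted p below 0.05. That gene was RSRP1, whose rise was 2.24 with estradiol and 3.40 without (difference -1.16, SE 0.18; limma, adjusted p = 0.0252). It read 7.12, 7.17 and 6.98 in hypoxia and 4.88, 4.84 and 4.83 in normoxia with estradiol, and 8.01, 8.32 and 8.14 in hypoxia and 4.73, 4.96 and 4.57 in normoxia without. All 3 hypoxic arrays with estradiol are below those without, and the normoxic arrays overlap. This call was lost when arrays were centred on their medians, when all probe sets of a gene were averaged, and when any of 9 of the 12 arrays was left out singly. A missing call elsewhere does not show that estradiol has no effect on a gene's response.

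**Figure D3:**
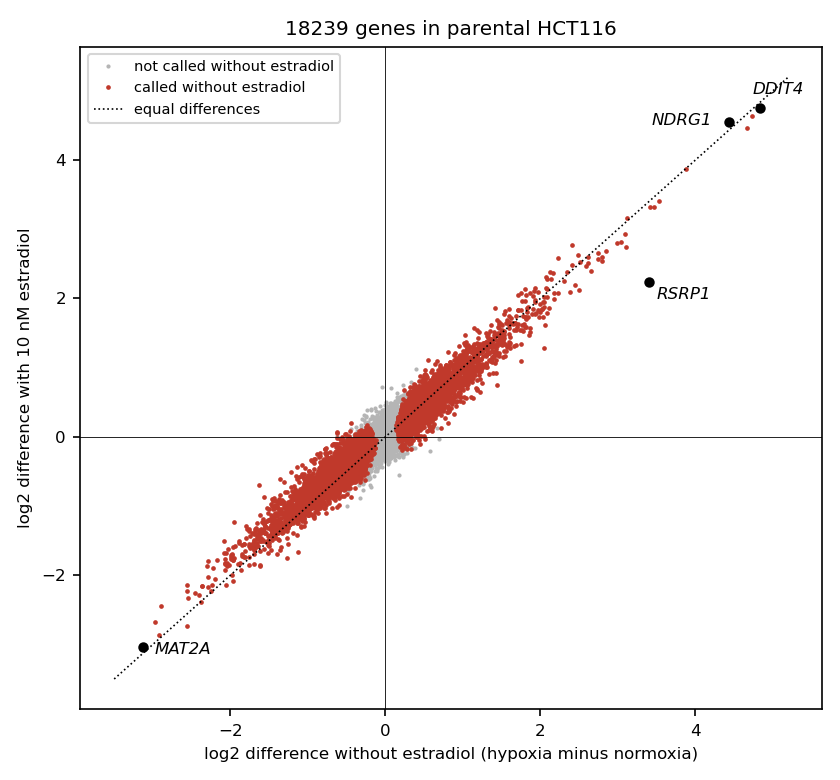
Each point is 1 of 18239 genes in parental cells: log2 difference of hypoxia minus normoxia without estradiol (x axis) against that with 10 nM estradiol (y axis), red where called without estradiol and grey where not; the dotted line marks equal differences. Points follow the line from MAT2A at the lower left to DDIT4 at the upper right, and RSRP1 lies below it, at 3.40 without and 2.24 with estradiol.

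The response of many genes differed in ESR2 cells. A test of the parental minus the ESR2 response called 5597 genes (30.7%), 2610 positive and 2987 negative. Of the 30 largest rises in parental cells, all 30 were also called higher in ESR2 cells, but 27 rose less there by this test, with a median of 2.82 in parental cells and 1.85 in ESR2 cells. The exceptions were CXCR4, SLC2A1 and PLEKHA2, whose rises were 3.48, 2.61 and 2.25 in ESR2 cells. Of the 30 largest falls, 29 fell less in ESR2 cells by the test, 21 were called lower there at all, and the median was -2.29 in parental cells and -0.36 in ESR2 cells. MAT2A differed by -0.24 in ESR2 cells, NCOA5 by 0.05 and SFPQ by -0.03. BST1, the one fall without a called difference, was -2.07 in parental cells and -1.70 in ESR2 cells. The genes were chosen in parental cells, which alone can make their values smaller elsewhere. In parental cells with estradiol, whose arrays did not choose them, the medians were 2.67 and -2.13. Transduction, selection and ESR2 itself cannot be told apart as the source of a difference.

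**Figure D4:**
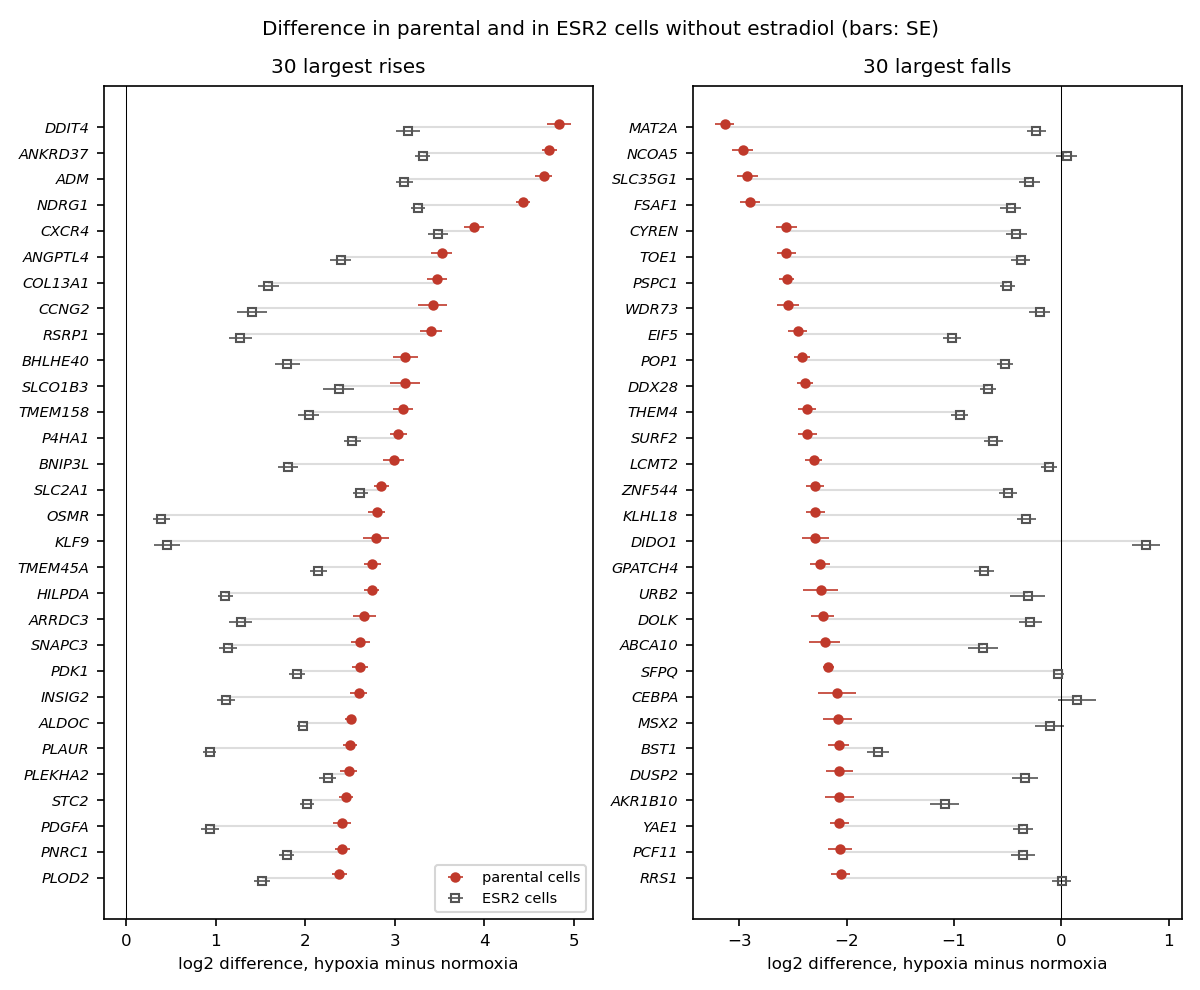
Log2 difference of hypoxia minus normoxia (x axis) without estradiol for the 30 largest rises (left) and the 30 largest falls (right) of parental cells; red points are parental cells, grey squares below them ESR2 cells, and bars the SE from the model. Rises in ESR2 cells lie between 0.39 and 3.48 and falls between -1.70 and 0.79, nearer to 0 than in parental cells.

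Genes with the widest difference between the lines were partly outside the 60 above. MAL2, a membrane trafficking protein, rose by 0.66 in parental cells and was -1.91 in ESR2 cells, and LCORL, a transcription regulator, rose by 1.70 and was -0.63 in ESR2 cells. CXCL10, an interferon-induced chemokine, differed by 0.10 in parental cells, not called, against -2.11 in ESR2 cells. On the other side, DIDO1 fell by 2.29 in parental cells and was 0.79 in ESR2 cells by its brightest probe set, a difference between the lines of -3.08 that was -0.36 with all 6 probe sets averaged. RDH10, which makes retinal, fell by 1.98 and was 0.23 in ESR2 cells.

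The share of genes called varied with gene length and signal. Genes were split into 5 equal groups by their span in the genome, from RefSeq coordinates of GRCh38.p14. Among the longest, from 86.7 to 2474 kb, 26.5% were called higher and 13.5% lower. Among the shortest, up to 7.10 kb, 9.05% were higher and 18.7% lower, and the share of higher calls increased through 11.5%, 15.2% and 19.7% in the groups between. The share of lower calls did not change steadily with length, at 24.8%, 25.3% and 23.8% in the groups between. Groups by length were not matched for signal. Calls were rarer at low signal: of the dimmest group 2.71% were higher and 1.51% lower, and of the brightest 25.1% were higher and 39.9% lower. With estradiol, in separate arrays, the median log2 difference was 0.04 in the longest and -0.01 in the shortest group, against 0.05 in the longest and a value near 0 in the shortest group without.

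**Figure D5:**
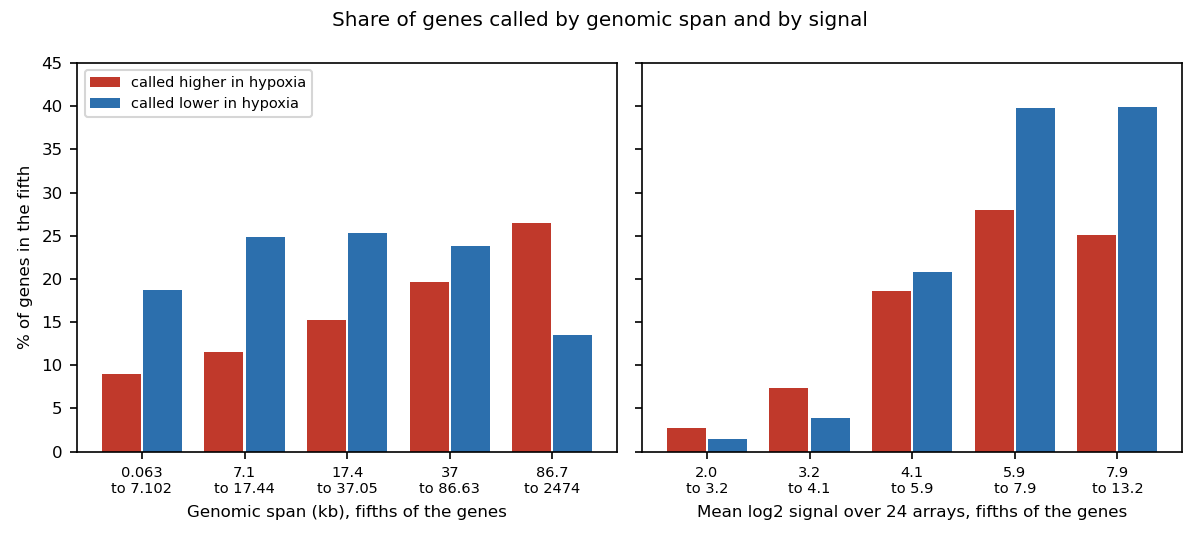
Percent of genes called higher (red, left bar) and lower (blue, right bar) in hypoxia, for 5 equal groups of genes by genomic span in kb (left panel) and by mean log2 signal over all 24 arrays (right panel). Higher calls increase with span, from 9.05% to 26.5%, and both kinds of call are rare in the dimmest group.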

How the data were processed

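Labelled RNA was hybridised to 24 Affymetrix 3′ arrays of 8 groups. The authors deposited log2 signals made with RMA and the affy package, per the submitters' processing notes; no version is stated. Of 49386 probe sets, 93 controls were set aside, 45253 had 1 gene symbol in the platform annotation, 1327 several and 2713 none; the brightest probe set by mean over all arrays stood for each of 18239 genes. Differences were tested with limma 3.58.1 (R 4.3.3) in a model of 8 group means with 16 residual degrees of freedom, with Benjamini-Hochberg adjustment over all genes at 0.05. The model was tested on simulated data. RNA counts are not available from arrays, so precision rests on 3 arrays a group. Gene lists and the genes described were chosen with earlier results of these data known. The rule for naming covered the 30 largest rises and falls with groups that do not overlap and up to 8 members per list with the smallest p. It also covered members called against their list, all oxygen-sensing genes and the 10 largest interactions each way. Only part of the rises, falls and list members under this rule is named in the text. Other list members were chosen after their values were seen. Promoter windows and gene spans came from RefSeq tables (GRCh38.p14). Alternatives were normalization, a filter on dim genes, averaged probe sets, priors, array weights, fewer groups, a replicate block, the 3′ minus 5′ index and left-out arrays.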

Additional observations from a re-analysis of the deposited data

Results flagged for a closer look

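RSRP1 is listed because its rise in hypoxia differed between the estradiol conditions, by -1.16 (2.24 with estradiol and 3.40 without; limma, adjusted p = 0.0252). It is the single gene called by that test. With its probe sets averaged the difference was -0.41, not called.

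A test of the difference also separated the hypoxia response of parental cells from that of ESR2 cells in 5597 genes, and the widest differences in each direction are given here as parental minus ESR2 log2 values. Among those more positive in parental cells, the values were 2.57 for MAL2, 2.41 for OSMR, 2.35 for KLF9, 2.33 for LCORL, 2.21 for CXCL10, 2.20 for ZNF226, 2.13 for RSRP1, 2.11 for TRIOBP, 2.08 for GASK1B and 2.07 for KRTAP4-9. Among those more negative in parental cells, they were -2.21 for RDH10, -2.23 for CEBPA, -2.27 for DLX2, -2.29 for CCDC71, -2.34 for WDR73, -2.43 for FSAF1, -2.63 for SLC35G1, -2.90 for MAT2A, -3.02 for NCOA5 and -3.08 for DIDO1. Adjusted p-values (limma) were at most 2.76e-07 among these 20 genes. MAL2, ZNF226, LCORL and GASK1B were called higher in parental cells and stood at -1.91, -1.36, -0.63 and -1.05 in ESR2 cells. DLX2 and CCDC71 were at -1.11 and -1.31 in parental cells, both called lower, against 1.17 and 0.98 in ESR2 cells. With all probe sets of a gene averaged, the direction of these 20 differences stayed, and those that shrank by more than 1.5 times were 1.67 for MAL2, 1.19 for GASK1B, 1.02 for KLF9, 1.00 for RSRP1, 0.81 for ZNF226, 0.57 for TRIOBP, 0.28 for OSMR, -0.36 for DIDO1, -0.75 for DLX2, -1.71 for NCOA5 and -1.76 for MAT2A. In parental cells, 2 of the 4 probe sets of ZNF226 were higher and 2 lower, from -1.35 to 0.99. Transduction and ESR2 cannot be told apart in these values.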

How the results depend on the processing

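The counts of genes called higher and lower, 2983 and 3861, stayed within 1.5 times under every alternative run. They were 4265 higher and 4685 lower with array weights, 2389 and 3180 with only the groups compared, 2588 and 4287 with arrays centred on their medians, and 2939 and 3471 with the 3′ minus 5′ index as a covariate. With the replicate number as a block they were 2926 and 3815. Arrays with the same number did not deviate together (correlations of -0.288, -0.175 and 0.051), so the numbers were not used to pair arrays; the labels state no shared day or batch. Leaving out single arrays gave 2664 to 3112 genes higher and 3541 to 3914 lower, and past 2-fold 432 to 493 higher and 551 to 684 lower. Past 2-fold, averaging all probe sets of a gene gave 284 higher and 353 lower, against 456 and 608 from the brightest. The single call of a difference between both estradiol conditions became 13 with array weights, 3 with an intensity trend and robust prior, 0 with centred arrays, 0 with averaged probe sets, and 0 to 2 without single arrays; with the replicate block it was 1. Calls of a difference between parental and ESR2 cells ranged from 4997 to 5817 without single arrays. Of 282 called genes named here, 261 kept direction and call under all 15 settings, 21 did not under at least 1, and 2 turned sign (CLK4 and MRPL33, with averaged probe sets). All other sign changes were of genes not called. The log2 differences that turned sign were these. With the 3′ minus 5′ index as a covariate, ESR2 at 0.11, HIF3A at 0.012, LDHB at -0.011, MCM4 at -0.26, MDM2 at -0.28, NONO at 0.0054, PDHA1 at 0.0103 and TK1 at 0.092. With array weights, ARNT at -0.028, CCNB2 at -0.023, MCM4 at -0.18, MDM2 at -0.049, NONO at 0.013 and PDHA1 at 0.049. With arrays centred on their medians, ARNT at -0.0023, LDHB at -0.0095 and UBE2C at -0.032. With averaged probe sets, CLK4 at 0.89, ESR2 at 0.016, LOX at 0.0086, MCM4 at -0.39, MRPL33 at -0.036, PDHA1 at 0.0029 and PLIN2 at 0.0045. With a further quantile normalization, TK1 at 0.0043. Without single arrays, the ranges were -0.037 to 0.084 for ARNT, -0.18 to 0.028 for CCNA2, -0.081 to 0.036 for DNMT1, -0.097 to 0.026 for ESR2, -0.14 to 0.017 for HIF3A, -0.27 to 0.24 for MCM4, -0.21 to 1.21 for MDM2, -0.12 to 0.011 for PDHA1, -0.10 to 0.069 for TK1, -0.066 to 0.12 for UBE2C, -0.069 to 0.25 for VEGFB and -0.026 to 0.13 for VEGFC. The cause of these changes was not tested. Dim signal limits what can be called, as the shares by signal group show.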
